A study of Mus musculus with 6 samples.

Results

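The genes described here are those that take heme apart and hold or move the iron it releases. The 10 genes were chosen by name: Slc48a1, Hmox1, Hmox2, Blvra, Blvrb, Fth1, Ftl1, Ncoa4, Slc40a1 and Tfrc. All 10 had a row among the 21841 genes of the deposited table. RNA came from tumor-associated macrophages (TAMs) sorted as live cells positive for CD45, CD206, LYVE-1 and the macrophage protein that Adgre1 encodes, from spontaneous mammary tumors of MMTV-PyMT mice (FVB/N-Tg(MMTV-PyVT)634Mul/J), in which a mammary tumor virus promoter drives polyoma middle T antigen. Both groups carried this transgene, and their genotype was otherwise labelled WT. The groups were vehicle (3 mice) and KCL-HO-1i (3 mice given 25 µmol/kg/day of this heme oxygenase inhibitor by intraperitoneal injection), and each library was the RNA-seq data of 1 mouse. Tumors were taken after 36 h, and the sort was of 5000 cells. The ages of the mice were not given in the labels. The comparison asks how the transcripts of these genes differed between TAMs of mice with and without the inhibitor.

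Heme oxygenase opens the heme ring and releases iron, carbon monoxide and biliverdin, which biliverdin reductase turns into bilirubin. Iron that is not used is stored in the shell of ferritin, built of heavy and light chains, or leaves the cell through ferroportin. Macrophages are known for this work because they take up dying red cells. Several of these transcripts carry an iron-responsive element, a short hairpin bound by iron regulatory proteins: at the start of a transcript it controls translation, and at the end it controls stability.

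The hairpins of 4 of the 10 genes are shown because they are the sequence feature that separates storage and export from uptake. Each was found in the transcripts of GENCODE M21 (GRCm38, the build the labels call mm10) as a stem around the loop CAGTGN, which is in capitals, and is written 5′ to 3′ on the strand of the gene. The search, on the sense strand, asked for a C, then a stem of 5 bases, the loop CAGTGN ending in A, C or T, and 5 bases that pair with the stem, G with T allowed. The elements of Fth1 (chr19:9982735-9982757, plus strand), Ftl1 (chr7:45459782-45459804, minus strand) and Slc40a1 (chr1:45925468-45925490, minus strand) lay in 5′ UTRs, and the 4 of Tfrc (chr16:32631222-32631244, chr16:32631601-32631623, chr16:32631666-32631688 and chr16:32631713-32631735, plus strand) lay in the 3′ UTR.
Fth1: ctgcttcaaCAGTGCttgaacgg
Ftl1: ttgcttcaaCAGTGTttgaacgg
Slc40a1: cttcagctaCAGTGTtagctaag
Tfrc site 1: tatcggaagCAGTGCcttccata
Tfrc site 2: tatcgggagCAGTGTcttccata
Tfrc site 3: tatcggagaCAGTGAtctccata
Tfrc site 4: tatcgggaaCAGTGTttcccata

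The same search found a match in the 5′ UTR of 21 of 20544 protein-coding genes (0.102%) and in the 3′ UTR of 98 of 20937 (0.468%). The other 6 genes had no match, which says only that these letters were not in these windows.

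The libraries were shallow and unlike one another. Total counts ran from 206728 to 338255 with vehicle and from 207812 to 535224 with KCL-HO-1i, and between 7584 and 17320 genes had a count. Within each group, libraries differed well beyond counting noise (chi-square per degree of freedom 6.64 to 37.3). Mitochondrial genes took 41.8% of KCL-HO-1i library 3 and 1.17% to 9.68% of the other 5 libraries. A list of 15 general macrophage genes took 0.172%, 0.0232% and 0.0385% of counts in vehicle libraries 1 to 3 and 0.491%, 0.783% and 0.410% in KCL-HO-1i libraries 1 to 3. The groups did not overlap on this list, and 7 of its 15 genes were higher in all 3 KCL-HO-1i libraries, against 3.89% of all genes with a count. Between 7 and 14 of the 15 genes were detected with vehicle and between 11 and 15 with KCL-HO-1i. In bulk RNA, fewer cells of a type and less RNA per cell cannot be told apart. Of the sort markers, Adgre1 gave 3, 3 and 1 counts for vehicle mice, compared with 26, 44 and 72 for KCL-HO-1i mice, Mrc1 (CD206) had 11.99, 0 and 2.516 against 30.639, 30.922 and 104.1, and Lyve1 had 22, 8 and 12.357 against 8, 38 and 36. Ptprc (CD45) had 0 counts in vehicle library 3 and KCL-HO-1i library 1. A list of 1475 olfactory and vomeronasal receptor genes, which macrophages are not expected to use, took 5.97% to 6.39% of counts with vehicle and 2.19% to 4.14% with KCL-HO-1i. Epithelial markers (11 genes) took 0.0162% to 0.0363% with vehicle and 0.0518% to 0.169% with KCL-HO-1i. Of the 11, 1 was higher in all 3 KCL-HO-1i libraries and 1 lower, where 3.89% and 13.1% of all genes with a count were. The first was Wfdc18, with 45, 0 and 8 counts against 235, 104 and 387. The other was Cdh1, with 5, 12 and 13 against 0, 3 and 0. Endothelial markers (7 genes) took 0.0260% to 0.0407% and 0.00673% to 0.0200%, and fibroblast markers (7 genes) 0.0269% to 0.0299% and 0.00626% to 0.0108%. Their part in the results below was not tested. The vehicle mice also shared an animal code prefix that no treated mouse had, so a batch that follows the codes and the treatment cannot be told apart.

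The 10 genes together took 0.0975% of counts in vehicle library 1 (95% Wilson interval 0.0851% to 0.112%), 0.0297% in vehicle library 2 (0.0232% to 0.0379%) and 0.0485% in vehicle library 3 (0.0416% to 0.0565%). In the KCL-HO-1i libraries they took 0.802% (0.765% to 0.841%), 0.761% (0.732% to 0.792%) and 0.729% (0.706% to 0.752%). Every KCL-HO-1i library was above every vehicle library (p = 0.1 in an exact permutation test, two-sided, where 3 against 3 can go no lower). These intervals cover the counting error of reads only. Of the 10 genes, 1, 7 and 2 were at 0 counts in vehicle libraries 1 to 3, and 3, 1 and 1 in KCL-HO-1i libraries 1 to 3.

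**Figure D1:**
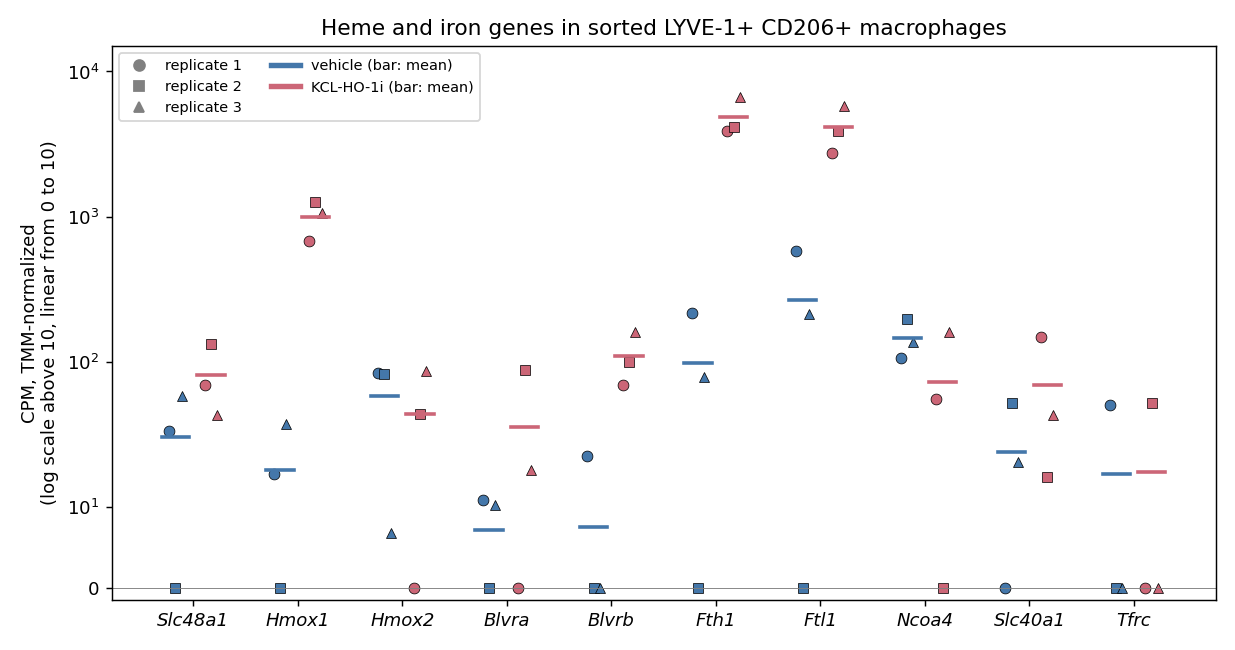
Level of each heme and iron gene (TMM-normalized CPM, vertical axis, on a log scale above 10 and linear from 0 to 10) in the 3 vehicle and 3 KCL-HO-1i libraries, with symbols for replicates and bars for group means. Hmox1, Blvrb, Fth1 and Ftl1 lie higher in every KCL-HO-1i library than in every vehicle library, and the other 6 genes overlap.

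Hmox1, Blvrb, Fth1 and Ftl1 were higher in every KCL-HO-1i library than in every vehicle library, and none of the 10 genes was lower in all of them. Among the 19518 genes with a count, 3.89% were higher in this way and 13.1% lower. The gap was widest for Hmox1, whose lowest KCL-HO-1i library was 18.2 times its highest vehicle library in CPM, and for Fth1, at 18.0 times. CPM here is relative to the library's counts on the genes that passed the filter on low counts, after TMM scaling. It was 4.72 times for Ftl1 and 3.09 times for Blvrb.

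The first step is heme arrival in the cytosol, for which Slc48a1 (also called HRG1) carries heme out of the lysosome. Slc48a1 lies on chromosome 15 from 97778520 to 97792692, plus strand. Counts were 6, 0 and 17 in the vehicle libraries, against 15, 33 and 12 after KCL-HO-1i. The groups overlapped in CPM, with 30.5 ± 29.1 (SD, n = 3) against 81.3 ± 45.6. Its log2 fold change was 1.38 with a standard error of 1.37 (edgeR, adjusted p = 0.917). Slc48a1 overlaps Hdac7 on the opposite strand, and the strand setting of the counting was not given in the sources used here.

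Hmox1 encodes HO-1, the inducible heme oxygenase and the enzyme that KCL-HO-1i inhibits, so its transcript is no check of the labels. The gene lies on chromosome 8 from 75093621 to 75100589, plus strand. It had 3, 0 and 11 counts in vehicle libraries 1 to 3. It had 148, 316 and 293 counts in KCL-HO-1i libraries 1 to 3. The lowest treated library thus stood far above all 3 vehicle libraries, of which library 2 held none. In CPM the means were 18.1 ± 18.8 with vehicle and 999 ± 294 with KCL-HO-1i (SD, n = 3, exact permutation p = 0.1). The log2 fold change was 5.69 with a standard error of 1.15, with an unadjusted p of 0.000428 in edgeR, the 10th smallest of 7263 genes, and an adjusted p of 0.218.

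Hmox2, the heme oxygenase made at a steady level in most tissues, did not share this pattern. It lies on chromosome 16 from 4726361 to 4766742, plus strand. It gave 14.998, 16.222 and 1.566 counts for vehicle mice, compared with 0, 10.664 and 24 for KCL-HO-1i mice, where fractions arise because reads shared by transcripts are divided. The highest library was a treated one and so was the lowest, at 57.8 ± 44.1 CPM against 43.4 ± 43.1. The log2 fold change was -0.39 with a standard error of 1.51 (edgeR, adjusted p = 0.965). Hmox2 overlaps Cdip1 on the opposite strand.

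Biliverdin reductase has forms A and B, and the counts of both were low. Blvrb (chromosome 7, 27447978 to 27466144, plus strand) had 4, 0 and 0 counts in the vehicle libraries, against 15, 25 and 45 after KCL-HO-1i. All 3 treated libraries were above the vehicle library that held any, at 7.45 ± 12.9 CPM against 110.0 ± 47.0. The log2 fold change was 3.89 with a standard error of 1.58 (edgeR, unadjusted p = 0.0316, adjusted p = 0.530). Without vehicle library 1 it was 7.90, because the vehicle libraries left then held 0 counts, and that value rests on the prior count. Blvra (chromosome 2, 127070665 to 127097084, plus strand) gave 2, 0 and 3 counts for vehicle mice, compared with 0, 22 and 5 for KCL-HO-1i mice. Its groups overlapped and it did not pass the filter on low counts, and edgeR without the filter gave it a log2 fold change of 2.44 (SE 2.07, unadjusted p = 0.238, adjusted p = 0.814).

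Ferritin made up most of the counts on these genes in 5 of the 6 libraries. It accounted for 71.0%, 0% and 52.1% of the counts on the 10 genes in vehicle libraries 1 to 3, and for 86.7%, 82.6% and 88.8% in KCL-HO-1i libraries 1 to 3. Fth1, the heavy chain that oxidizes iron for storage, lies on chromosome 19 from 9980598 to 9985098, plus strand. Counts were 39.433, 0 and 22.504 in the vehicle libraries, against 850.265, 1034.229 and 1846.003 after KCL-HO-1i. Every treated library was above every vehicle library, with 98.8 ± 110 CPM against 4891 ± 1505. The log2 fold change was 5.63 with a standard error of 1.45 (edgeR, unadjusted p = 0.00254, adjusted p = 0.293).

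Ftl1, the light chain that helps form the iron core, lies on chromosome 7 from 45457944 to 45459884, minus strand. It gave 103.697, 0 and 62.962 counts for vehicle mice, compared with 594.909, 976.496 and 1618.779 for KCL-HO-1i mice. The groups again did not overlap, at 265 ± 294 CPM against 4151 ± 1550. The log2 fold change was 3.97 with a standard error of 1.44 (edgeR, unadjusted p = 0.0189, adjusted p = 0.448). Reads of Ftl1 may be shared with other genes, of which 11 matched its transcripts at 95% identity or more over at least 100 bases. They were Ftl1-ps1, the processed pseudogenes Ftl1-ps2, Ftl2-ps, Gm12164 and Gm15590, and microRNA genes that matched over 109 bases only. The microRNA gene Gm22133 overlaps Ftl1 itself on the same strand. Of these, Ftl1-ps1 was in the table, with 1.018, 5 and 4 counts with vehicle, set against 14.707, 40.7 and 22.3 with KCL-HO-1i. With its counts added to those of Ftl1 the log2 fold change was 3.92 (edgeR, adjusted p = 0.307).

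**Figure D2:**
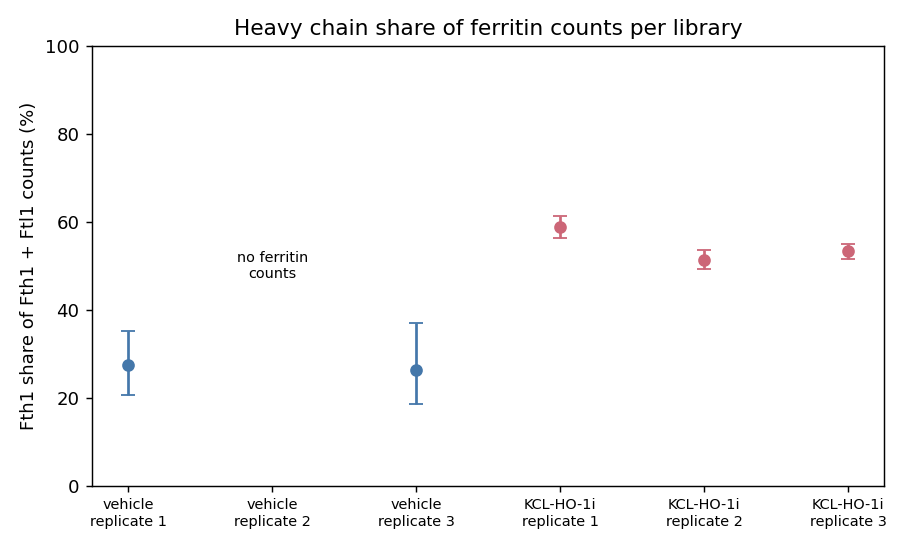
Fth1 as a percent of the counts on Fth1 and Ftl1 in each library, with 95% Wilson intervals as error bars. The bars cover the counting error of reads only. The 2 vehicle libraries with ferritin counts sit at 27.6% and 26.3%, and the 3 KCL-HO-1i libraries between 51.4% and 58.8%.

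The balance of the ferritin chains can be read within a library, where no scaling between libraries enters. Fth1 took 27.6% of the ferritin counts in vehicle library 1 (95% Wilson interval 20.6% to 35.1%) and 26.3% in vehicle library 3 (18.5% to 36.9%). It took 58.8% (56.3% to 61.3%), 51.4% (49.3% to 53.6%) and 53.3% (51.6% to 54.9%) in KCL-HO-1i libraries 1 to 3. Vehicle library 2 had no ferritin counts and gives no value. The groups did not overlap. The intervals of the 2 groups did not overlap either, but they treat reads as independent and do not measure the spread between mice. With 2 against 3 libraries no exact p below 0.2 is possible, which is the value found (two-sided exact permutation test). With Ftl1-ps1 counted as light chain the shares were 27.4% and 25.2% with vehicle, set against 58.2%, 50.4% and 52.9% with KCL-HO-1i. Per kb of the longest transcript, Fth1 stood at 0.246 and 0.232 of the Ftl1 level with vehicle and at 0.926, 0.686 and 0.739 with KCL-HO-1i. The measure was chosen after the counts had been seen.

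Hmox1 did not separate from ferritin in the same way. For each 100 ferritin counts there were 2.10 Hmox1 counts in vehicle library 1 and 12.9 in vehicle library 3. There were 10.2, 15.7 and 8.46 in KCL-HO-1i libraries 1 to 3, so the groups overlapped.

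Ncoa4 encodes the receptor that delivers ferritin to the lysosome for iron release. It lies on chromosome 14 from 32159865 to 32179855, plus strand. Counts were 19, 37.762 and 40.027 in the vehicle libraries, against 12, 0 and 45.275 after KCL-HO-1i. Unlike ferritin it had counts in every vehicle library, and the groups overlapped at 146 ± 45.9 CPM against 72.3 ± 82.1. The log2 fold change was -1.01 with a standard error of 1.26 (edgeR, adjusted p = 0.931). Reads of Ncoa4 may be shared with the processed pseudogene Gm6768, 99.89% identical over 1878 bases, which had no row in the deposited table.

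The 2 transporters at the cell surface were near the limit of detection. Slc40a1 encodes ferroportin, the iron exporter (chromosome 1, 45908068 to 45926523, minus strand), and gave 0, 10 and 6.105 counts for vehicle mice, compared with 32, 4 and 12 for KCL-HO-1i mice. Tfrc encodes the transferrin receptor for iron uptake (chromosome 16, 32608920 to 32632794, plus strand), and had counts in 1 library of each group, 9.374 in vehicle library 1 and 12.664 in KCL-HO-1i library 2. Both overlapped between groups and neither passed the filter. In edgeR without the filter the log2 fold change was 1.65 for Slc40a1 (SE 1.59, unadjusted p = 0.299, adjusted p = 0.872) and 0.29 for Tfrc (SE 2.08, unadjusted p = 0.890, adjusted p = 0.998). A count of 0 allows up to 3 counts, or 5.61 to 14.5 CPM of unscaled totals, depending on the library.

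Levels can be compared between genes only per length. Per kb of the longest transcript, the mean CPM with KCL-HO-1i was 4288 for Ftl1, 3274 for Fth1, 637 for Hmox1 and 107 for Blvrb. Across libraries the spreads of Ftl1 and Fth1 overlapped. Within each KCL-HO-1i library, however, Fth1 was below Ftl1 per kb, at 0.926, 0.686 and 0.739 of its level. The other 6 followed at 32.1 for Slc48a1, 30.4 for Blvra, 25.1 for Hmox2, 20.4 for Slc40a1, 17.8 for Ncoa4 and 3.54 for Tfrc, an order in which neighbours did not differ beyond their spread. With vehicle the mean CPM per kb was 274 for Ftl1, 66.1 for Fth1, 36.0 for Ncoa4, 33.4 for Hmox2, 12.0 for Slc48a1 and 11.5 for Hmox1. The remaining 4 were at 3.43 to 7.25, and the spread of Ftl1 and Fth1 was as large as their means.

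The counts per kb were also set beside 1471 olfactory and vomeronasal receptor genes with a known length. In vehicle libraries 1 and 3, Fth1 and Ftl1 were above the range that held the central 95% of them and the other 8 were not, and in vehicle library 2 none of the 10 was. In each KCL-HO-1i library Hmox1, Blvrb, Fth1 and Ftl1 were above it. Blvra and Slc48a1 passed it in KCL-HO-1i library 2 and Hmox2 in KCL-HO-1i library 3. Slc40a1, Tfrc and Ncoa4 passed it in no library.

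**Figure D3:**
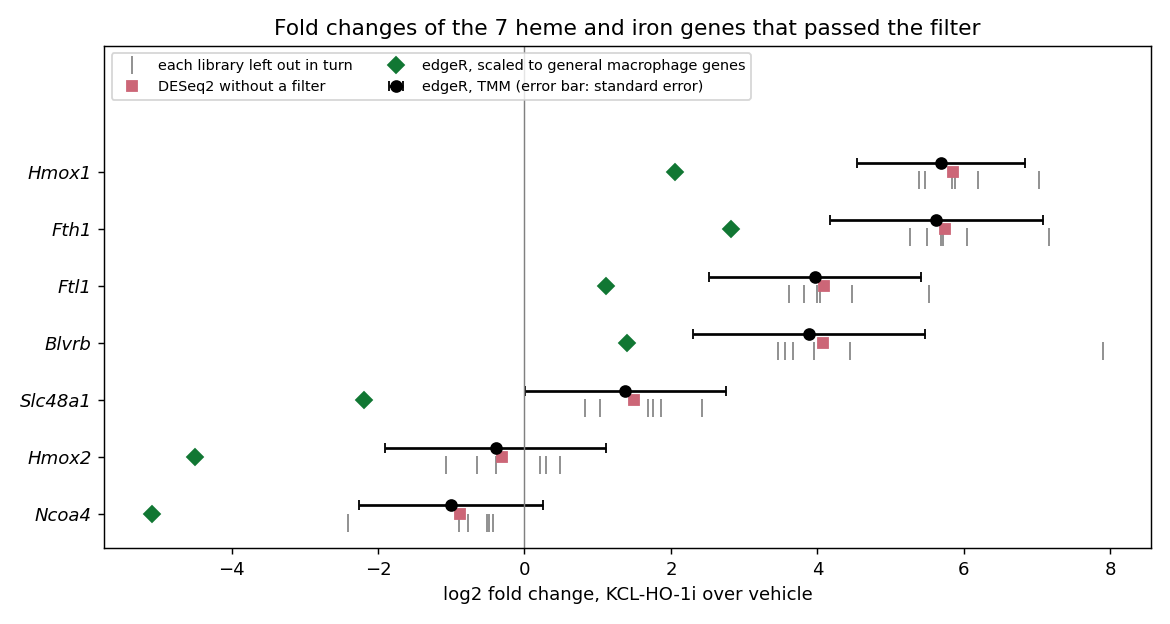
Log2 fold change of KCL-HO-1i over vehicle (horizontal axis) for the 7 genes that passed the filter, from edgeR with TMM scaling (circles, with standard errors), DESeq2 (squares), edgeR scaled to general macrophage genes (diamonds) and edgeR with each library left out in turn (ticks). Hmox1, Fth1, Ftl1 and Blvrb stay above 0 in every case drawn, and Slc48a1 crosses to -2.19 when scaled to macrophage genes.

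Of the 10 genes, 7 passed the filter and were tested with edgeR among 7263 genes. None was called at an adjusted p under 0.05 and a log2 fold change beyond 0.6, and neither was any of the 7263 genes (0%). Hmox1, Fth1, Ftl1 and Blvrb had an unadjusted p under 0.05 in edgeR, against 8.07% of all genes tested and 5.01% in the higher direction. The filter needed 3 libraries over 37.4 CPM of unscaled totals. Hmox1 and Blvrb reached this in KCL-HO-1i libraries alone, with 0 vehicle libraries over it. Fth1 and Ftl1 had 2 vehicle libraries over it besides the 3 treated ones. The count of 4 is therefore not support of its own. The median log2 fold change of the 7 genes was 3.89, beside -0.52 over all genes tested. Over all 10 genes the median was 2.04 in edgeR without the filter, where all genes had -0.52, and 1.96 in DESeq2 without a filter, where all genes had -0.67. DESeq2 without a filter called Hmox1 (log2 fold change 5.86, adjusted p = 7.49e-05) and Fth1 (5.75, adjusted p = 0.000412), where 0.462% of all genes were called higher. In either direction it called 0.751%. It gave Ftl1 a log2 fold change of 4.09 and an adjusted p of 0.0529. On the filtered genes DESeq2 called Hmox1, Fth1 and Ftl1, where it called 3.25% of genes, 2.26% higher. limma voom called these 3 and Blvrb, where it called 4.12%, 4.03% higher. edgeR without a filter called Hmox1, Fth1 and Ftl1, where it called 0.42%, 0.359% higher.

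**Figure D4:**
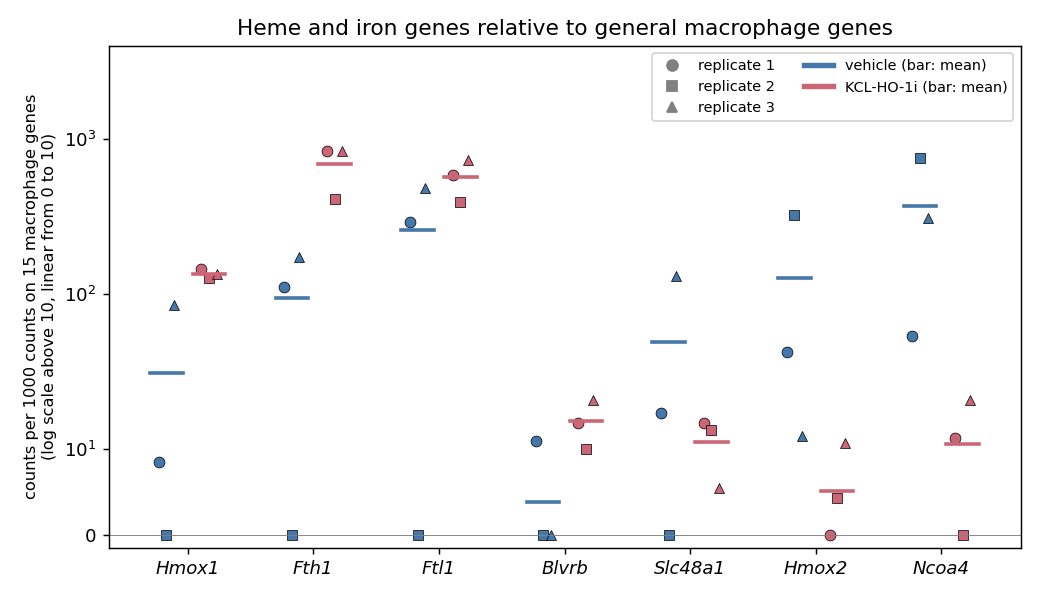
Counts of 7 heme and iron genes for each 1000 counts on 15 general macrophage genes (vertical axis, log scale above 10, linear from 0 to 10) in each library, with bars for group means. Hmox1 and Fth1 remain apart between groups, Ftl1 and Blvrb overlap, and Hmox2 and Ncoa4 lie lower in every KCL-HO-1i library.

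Because the macrophage genes moved with the groups, each gene was also counted against them. For each 1000 counts on the 15 macrophage genes there were 8.46, 0 and 84.6 Hmox1 counts with vehicle, set against 145, 126 and 134 with KCL-HO-1i. For Fth1 the values were 111, 0 and 173 with vehicle, set against 833, 413 and 842 with KCL-HO-1i. Hmox1 and Fth1 were therefore higher in every treated library on this scale too, as were 0.395% of all genes with a count, and by less than in CPM.

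Ftl1 had 292, 0 and 484 counts in the vehicle libraries, against 583, 390 and 738 after KCL-HO-1i for each 1000 macrophage counts, and the groups overlapped. Blvrb had 11.3, 0 and 0 against 14.7, 9.98 and 20.5, and these overlapped as well. On the same scale Ncoa4 had 53.6, 756 and 308 against 11.8, 0 and 20.6, and Hmox2 had 42.3, 325 and 12.0 against 0, 4.26 and 10.9. Every treated library was below every vehicle library for these 2 genes, as it was for 48.2% of all genes with a count. The denominator was 355, 50 and 130 counts with vehicle, so these ratios are coarse.

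With edgeR scaled to the macrophage genes, log2 fold changes were 2.06 for Hmox1 (adjusted p = 0.240), 2.81 for Fth1 (adjusted p = 0.0909), 1.12 for Ftl1 (adjusted p = 0.474) and 1.40 for Blvrb (adjusted p = 0.347). Under this scaling the median of all genes was -4.46. Hmox1 stood 6.21 above the median of all genes with TMM scaling and 6.51 above it here. A change of scaling moves all genes together, so this distance stays nearly fixed. It is no measure of Hmox1 against macrophage RNA. Ncoa4 (-5.09, adjusted p = 0.0170) and Hmox2 (-4.49, adjusted p = 0.0271) passed the threshold in the lower direction, as 71% of all genes tested did, at -0.63 and -0.04 relative to that median.

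Hmox1, Fth1, Ftl1 and Blvrb were higher in every KCL-HO-1i library, so leaving out libraries could not turn their direction. Only the size of the change can be read from it. Without vehicle library 2 and KCL-HO-1i library 3 the log2 fold change was 5.10 for Hmox1, 4.75 for Fth1, 3.06 for Ftl1 and 2.95 for Blvrb. In edgeR the adjusted p was then 0.822 for Hmox1, Fth1 and Ftl1 and 0.999 for Blvrb. This alternative was chosen after seeing the data. Leaving out 1 library at a time gave 5.39 to 7.03 for Hmox1, 5.27 to 7.17 for Fth1 and 3.61 to 5.52 for Ftl1. The adjusted p-values in edgeR were then 0.0649 to 0.743, 0.0519 to 0.809 and 0.149 to 0.981.

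The wider pathway was read from a list of 51 other genes of heme synthesis, heme and hemoglobin uptake, iron transport, iron sensing and the transcription factors that act on Hmox1. Of these, 23 passed the filter, 11 with a higher and 12 with a lower value, and the median log2 fold change was -0.09. None was called in edgeR and none had an unadjusted p under 0.05. Every KCL-HO-1i library was above every vehicle library for 1 of the 51 genes and below for 3, where over all genes with a count these shares were 3.89% and 13.1%, so neither count stood out from the table. The first was Bach1, a repressor of Hmox1, and the others were Steap3, a ferrireductase of the transferrin cycle, Tfr2, a second transferrin receptor, and Cp, the ferroxidase ceruloplasmin, all 4 named after their values were seen. Bach1 gave 20.53, 4.905 and 33.003 counts for vehicle mice, compared with 54, 53.157 and 82 for KCL-HO-1i mice. Together the 51 genes took 0.248%, 0.169% and 0.201% of counts with vehicle, set against 0.179%, 0.243% and 0.160% with KCL-HO-1i, and the groups overlapped.

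Erythroid transcripts were looked at because macrophages take up red cells. Of 10 listed genes 9 were in the table, none passed the filter, and they took 0.00139% to 0.0106% of counts with vehicle and 0.00276% to 0.0599% with KCL-HO-1i, which overlap.

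The genes whose pattern was most like that of Hmox1 over the 6 libraries, by root mean square difference of centred log2 CPM, were Dbi (0.360), Tmem256 (0.597), Zfp36 (0.713), Chchd2 (0.725) and Anxa1 (0.790). Dbi had 4, 0 and 9 counts in the vehicle libraries, against 97, 182 and 223 after KCL-HO-1i. Zfp36 gave 6, 2 and 21 counts for vehicle mice, compared with 91, 202 and 402 for KCL-HO-1i mice. These 5 genes share the libraries and their depth with Hmox1, and no test was made of the likeness.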

How the data were processed

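RNA of sorted TAMs was made into libraries with the NEBNext Ultra II Directional kit. Per the labels and methods, the authors used FastQC 0.11.9, STAR 2.7.9a, Salmon 1.9.0 and tximport, with build mm10. The deposited table holds estimated counts per gene for 6 libraries, not normalized by the authors, although the methods call them TPM. The counts were rounded for the tests. Genes with few counts were filtered (filterByExpr, minimum 10, total 15), which left 7263. edgeR 4.0.16 (R 4.3.3) gave TMM factors and the quasi-likelihood test with Benjamini-Hochberg adjustment, and calls needed an adjusted p under 0.05 and a log2 fold change beyond 0.6. DESeq2 1.42.0 and limma 3.58.1 were alternatives. CPM used the TMM library sizes of the filtered genes. Standard errors were the absolute log2 fold change over the square root of F. Exact permutation tests used scipy 1.17.1 and near-identical transcripts blastn 2.17.0. The tests were tried on simulated data. The libraries held no molecular identifiers, so intervals cover the counting error of reads only and not that of molecules. Each library was 1 mouse, and per the methods the mice were collected on different days, so the day cannot be told apart from the mouse. The genes and lists were chosen with earlier results of these data known. From the other list, genes with an unadjusted p under 0.05 were to be named, and none qualified.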

Additional observations from a re-analysis of the deposited data

How the results depend on the processing

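The count of all genes called was 0 with edgeR and changed to 164 with DESeq2 without a filter, 236 with DESeq2 on the filtered genes, 299 with limma voom and sample quality weights, 82 in edgeR without a filter, 67 with at least 10 counts in every library and 5168 when scaled to the macrophage genes. With each library left out in turn it was 0 to 74, and 74 arose without vehicle library 1. Of the heme and iron genes, 2, 3, 4 and 3 were called under the first 4 of these and 2, both lower, when scaled to the macrophage genes. In the main edgeR fit 4 of the heme and iron genes had an unadjusted p under 0.05, all higher, as did 586 of all 7263 genes in either direction. Without vehicle library 3 there were 2, both higher, beside 387 of all 7317 genes. Scaled to the macrophage genes there were 2, Ncoa4 and Hmox2, both lower, and 0 higher, beside 5568 of all 7263 genes. None of the 10 had at least 10 counts in every library. Of the 23 other heme and iron genes tested, limma voom called 1 (Slc11a1), where it called 4.12% of all genes tested. Scaled to the macrophage genes 13 of the 23 were called, all lower, as were 71% of all genes tested. Hmox2 reversed to 0.53 with limma voom and ranged from -1.08 to 0.49 with each library left out. Slc48a1 reversed to -2.19 when scaled to the macrophage genes. The cause was not tested. Hmox1, Fth1, Ftl1 and Blvrb kept a higher value under every alternative run. Leaving out libraries could not have changed that, as their groups did not overlap in CPM. Mice had replicate numbers 1 to 3 in both groups, and the correlations of same-numbered libraries were -0.0026, 0.0550 and -0.0326. Libraries of the same group were themselves unlike one another, so these values cannot decide whether the numbers pair mice. With the replicate block 0 genes were called and the log2 fold change of Hmox1 was 6.05. Tfrc, Blvra and Slc40a1 did not pass the filter of the main fit, and without the filter none of them was called. With each library left out in turn 8 of the 10 genes passed the filter, and none was called.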
